A study of Mus musculus with 7 samples.

Results

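The genes described here build the membrane of red cell precursors or control their maturation. They were chosen by name: a probe set counted when the platform annotation gave one of 34 listed symbols as its only gene. Of these 34 genes 33 had at least 1 such probe set, out of 18193 genes named on the array, and Trim58 had none. Livers were taken on day of life 1 from 4 glycerol kinase knockout and 3 wild type pups, all male and of the C57BL/6J strain; the wild type pups were age-matched littermates of knockouts. RNA of each liver was hybridised to its own Affymetrix Mouse Genome 430 2.0 array. Glycerol kinase phosphorylates glycerol, and the pups were taken at an age at which the submitters describe the knockouts as still without signs of disease. The comparison asks which liver transcripts differ before illness shows. The labels name no allele, promoter or tissue restriction for the knockout, and the targeted transcript is not analysed here.

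The liver is a site of blood formation in the fetal mouse, and islands of red cell precursors are still present at birth. Maturation starts from progenitors that depend on the erythropoietin receptor, and it is driven by a complex around GATA1, TAL1 and LMO2 and by KLF1, which switch on genes for globin, heme and the red cell surface. Late precursors take up iron through the transferrin receptor, assemble a spectrin and actin skeleton under the membrane and anchor it to the band 3 anion exchanger, before the nucleus is lost.

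Intensities are the deposited linear values, and each array had been scaled to the same trimmed mean. Array medians ran from 92.7 to 108.3 in knockout livers and from 101.7 to 106.6 in wild type livers. Correlations between arrays over tested probe sets lay between 0.93 and 0.99 (across probe sets, not replicates), and 0 pairs of arrays held identical values. Knockout 3 and wild type 1 stood apart for some red cell genes. Knockout 3 had a transferrin receptor 3' to 5' control ratio of 11.1, against 7.22 to 7.32 in the other knockout livers and 7.91 to 8.24 in wild type livers. It was the highest of the knockout livers for 20 of the 33 genes (60.6%), a position it held in 26.2% of 11159 named genes. Wild type 1 was the lowest of the wild type livers for 22 of the 33 genes (66.7%), against 38.0% of named genes.

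Most of the 33 genes were lower in knockout liver, by modest amounts, and 6 of them fell past the threshold: Plek2, Tmod1, Trim10, Gypc, Rhag and Slc4a1. Each gene was read from its probe set of highest mean over the 7 arrays. Every such probe set passed the filter on dim signals, and limma was fitted over all 22518 probe sets kept, with a call at a Benjamini-Hochberg adjusted p under 0.05. The 6 calls are 18.2% of the 33 genes, against a background of 1.67% of 11159 named genes called lower in the same fit, with 3.09% called higher and 4.76% in either direction. Among all probe sets 4.24% were called, 1.89% lower and 2.35% higher. Of the 33 genes 0 rose by limma, and 0 were higher at an unadjusted p under 0.05. The log2 fold change was below 0 for 31 of 33, against 50.1% of named genes, and 19 of 33 were lower at an unadjusted p under 0.05, against 10.2%. The median log2 fold change over the 33 genes was -0.39, against 0.00 (-0.0013) over all named genes. The 4 knockout livers all lay below the 3 wild type livers for 16 genes (48.5%), against 10.4% of named genes, and all above for 0. In bulk liver RNA, fewer red cell precursors and less of these transcripts per cell cannot be told apart.

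**Figure D1:**
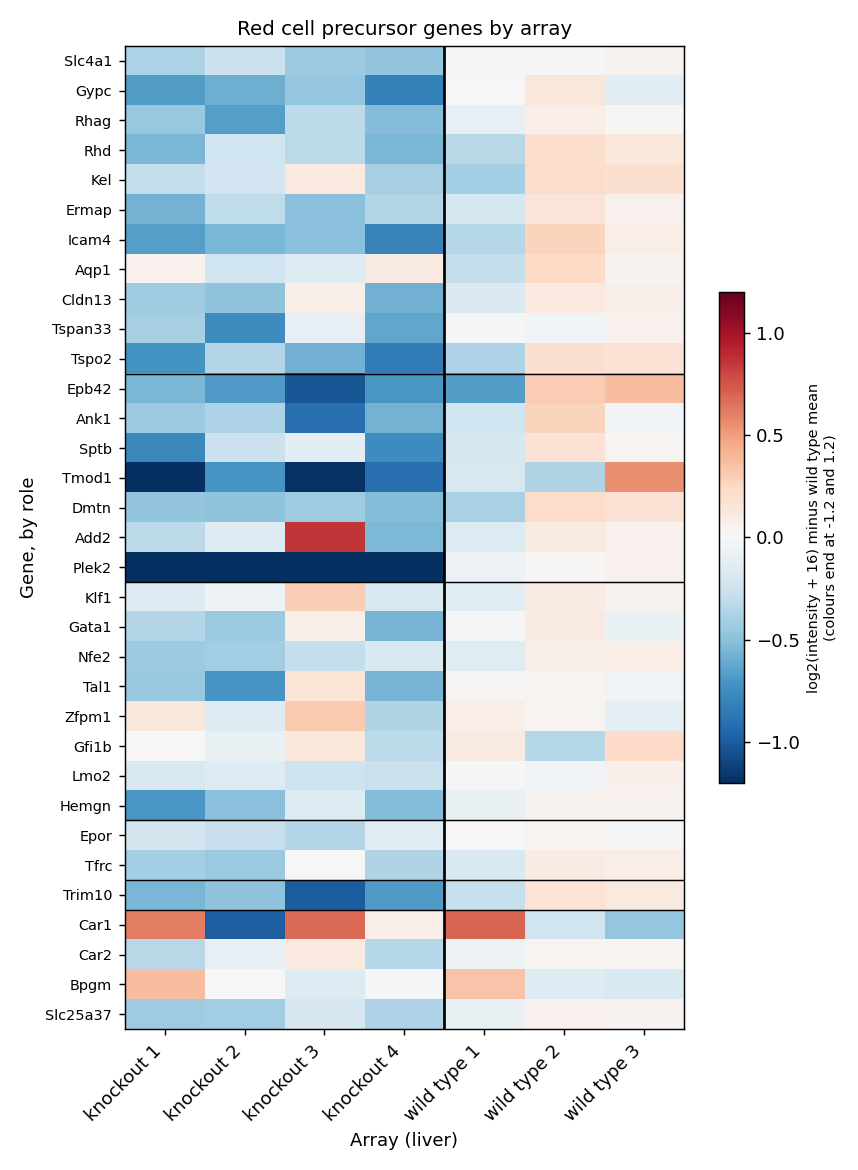
Each row is a gene, grouped by role, and each column a liver, knockout left and wild type right; colour gives log2(intensity + 16) minus the wild type mean of that gene. Knockout columns are mostly blue, with Plek2 and Tmod1 darkest, while Klf1, Zfpm1, Gfi1b, Car1 and Bpgm show no uniform colour.

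By liver, the median over the 33 genes of log2(intensity + 16) relative to the wild type mean was -0.43, -0.42, -0.20 and -0.52 in knockout 1 to 4, and -0.14, 0.10 and 0.05 in wild type 1 to 3. The 2 groups did not overlap on this measure, with knockout 3 and wild type 1 nearest to each other. Over all named genes the same medians stayed between -0.05 and 0.04 in knockout livers and between -0.01 and 0.01 in wild type livers. The number of calls depended on single livers, and not on these 2 alone. Without knockout 1, 2, 3 or 4 in turn, 3, 2, 9 and 1 of the 33 genes were called lower, and without wild type 1, 2 or 3 in turn, 4, 1 and 1. The median was -0.44 without knockout 3 and -0.41 without wild type 1. Scaling arrays to equal medians moved the median of all named genes to 0.07, and the median of the 33 genes stayed 0.38 below it, as with the deposited values. With that common shift 26 of 33 genes lay below 0, and Plek2 and Tmod1 passed. That scaling moved the share of higher calls among all called probe sets to 73.6%, against 55.4% as deposited.

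The largest change among the 33 genes was that of Plek2, which encodes pleckstrin 2, a protein with pleckstrin homology domains that acts on actin in late erythroblasts. Its single probe set read intensities of 141, 234, 318 and 145 in knockout 1 to 4, against 845, 894 and 920 in wild type 1 to 3. All knockout livers lay far below all wild type livers, and the highest of them was knockout 3. Plek2 averaged 209 ± 84.4 in knockout livers and 886 ± 38.1 in wild type livers (SD, n = 4 and 3). Its log2 fold change was -2.07 ± 0.26 (limma standard error, adjusted p = 0.0042), a 4.21-fold lower level. Plek2 passed whichever single array was left out, with log2 fold changes from -2.29 to -1.92 and adjusted p from 0.0019 to 0.031. It was also called in all 11 other settings that tested it, with a highest adjusted p of 0.0151. Without Plek2 the median of the remaining 32 genes was -0.37.

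Tmod1, which encodes tropomodulin, the cap on the slow-growing ends of the short actin filaments of the membrane skeleton, fell as well. Its intensities were 557, 846, 605 and 739 in knockout livers, against 1219, 1081 and 2065 in wild type livers. The groups were apart, and wild type 3 was well above the other wild type livers. The log2 fold change of Tmod1 was -1.03 ± 0.24 (limma adjusted p = 0.0426). It was -0.75 without wild type 3, with an adjusted p of 0.164, and Tmod1 passed in 0 of 7 runs that left out 1 array (adjusted p from 0.0527 to 0.164).

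Among late membrane proteins and blood group antigens, 3 of 11 genes fell (27.3%, against 1.67% of named genes). All 11 had a log2 fold change below 0, with a median of -0.43. Slc4a1 encodes band 3, the chloride and bicarbonate exchanger that is the main protein of the red cell membrane. Its brightest probe set read 17228, 18700, 16495 and 16106 in knockout livers, against 21989, 22005 and 23075 in wild type livers. The groups did not overlap, and the spread within each was small. Slc4a1 had a log2 fold change of -0.39 ± 0.09 (limma adjusted p = 0.0412), and its second bright probe set one of -0.45 ± 0.08 (adjusted p = 0.0192). The other probe set of Slc4a1 was at -0.81 ± 0.27 (adjusted p = 0.112).

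Gypc encodes glycophorin C, which ties the spectrin and actin network to the membrane. It read 1708, 1811, 1977 and 1548 in knockout livers, against 2727, 2998 and 2497 in wild type livers. No knockout liver reached the lowest wild type liver. Gypc had a log2 fold change of -0.64 ± 0.14 (limma adjusted p = 0.034). Rhag encodes the glycoprotein that carries the Rh complex to the surface. Its intensities were 6728, 5850, 7460 and 6458 in knockout livers, against 8659, 9760 and 9362 in wild type livers, again without overlap. Rhag had a log2 fold change of -0.49 ± 0.11 (limma adjusted p = 0.0443).

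Icam4, an adhesion protein of erythroblasts, had the groups apart but did not pass, at 1550, 1683, 1734 and 1405 in knockout livers, against 1934, 2966 and 2600 in wild type livers (log2 fold change -0.63 ± 0.17, limma adjusted p = 0.0634). Wild type 1 was the closest of the wild type livers to knockout, and without it Icam4 passed at an adjusted p of 0.0443. Ermap, the erythroid membrane protein that carries the Scianna antigens, read 8735, 10486, 9130 and 10103 in knockout livers, against 11182, 14393 and 13388 in wild type livers (log2 fold change -0.43 ± 0.12, adjusted p = 0.0718). Tspan33, a tetraspanin, read 5251, 4093, 6487 and 4488 in knockout livers, against 6841, 6779 and 7186 in wild type livers (-0.47 ± 0.15, adjusted p = 0.116). Both had all knockout livers below wild type in these probe sets. All 4 probe sets of Tspan33 were below 0, from -0.77 to -0.47, but in 2 of them the groups overlapped, with knockout 3 above every wild type liver. Without knockout 3, the probe set of Tspan33 given above passed at -0.59 (limma adjusted p = 0.0293).

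Tspo2, a relative of the mitochondrial translocator protein in late erythroblasts, was at -0.62 ± 0.18 (limma adjusted p = 0.0798) and overlapped only because knockout 2, at 2182, exceeded wild type 1, at 2156. Rhd, the Rh antigen itself, was at -0.41 ± 0.15, the claudin gene Cldn13 at -0.36 ± 0.16 and Kel, the Kell blood group peptidase, at -0.20 ± 0.18 (limma adjusted p = 0.149, 0.235 and 0.564). Without knockout 3, Cldn13 passed at -0.50 (limma adjusted p = 0.0496). In wild type 1, Kel read 3899, lower than the 3908 to 5619 of every knockout liver. Aqp1, the water channel of red cells and of endothelium, was at -0.06 ± 0.15 (adjusted p = 0.86).

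**Figure D2:**
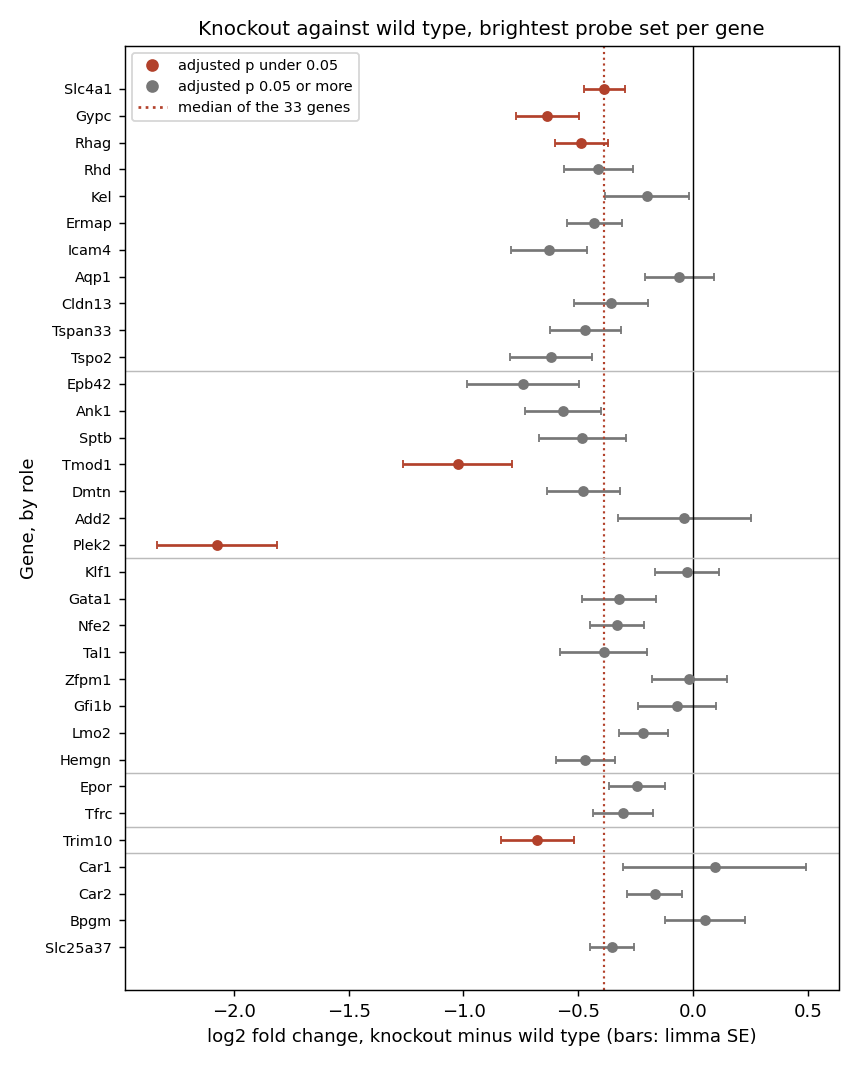
Points give the log2 fold change of each gene, knockout minus wild type, with limma standard errors; lines divide the roles. Red points are the 6 genes past an adjusted p of 0.05, and 31 of 33 points lie left of 0, around the dotted median of -0.39.

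In the membrane skeleton, 2 of 7 genes fell, Plek2 and Tmod1 (28.6%, against 1.67% of named genes). All 7 were below 0, with a median of -0.57. Ank1 encodes ankyrin, the link from spectrin to band 3. It read 3906, 4093, 2816 and 3556 in knockout livers, against 4484, 6362 and 5155 in wild type livers, without overlap, yet it missed the threshold at -0.57 ± 0.17 (limma adjusted p = 0.0841). Of its 3 other probe sets, the 2 that were tested were at -0.44 and -0.50 and also had the groups apart. Dmtn encodes dematin, which bundles actin. Dmtn read 2447, 2437, 2530 and 2366 in knockout livers, against 2601, 3967 and 3837 in wild type livers (-0.48 ± 0.16, adjusted p = 0.118). The knockout livers were tightly grouped and wild type 1 lay just above them.

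Epb42, whose product binds band 3, was at -0.74 ± 0.25 (limma adjusted p = 0.118), at 1250, 1136, 890 and 1120 in knockout livers, against 1147, 2263 and 2372 in wild type livers. Wild type 1 lay among the knockout livers here, and without it the log2 fold change of Epb42 was -1.08 (adjusted p = 0.0277). The second probe set of Epb42 was at -0.22 ± 0.23 (limma adjusted p = 0.624). Without wild type 1, Dmtn passed too, at -0.67 (adjusted p = 0.0421). Sptb, the beta spectrin chain, was at -0.48 ± 0.19 (adjusted p = 0.174). Add2, beta adducin, which caps the fast-growing ends of actin filaments, was at -0.04 ± 0.29 (adjusted p = 0.957), and its knockout livers ran from 590 to 1582, the highest being knockout 3, against 772 to 937 in wild type livers. Its 4 other probe sets were at -0.56 to -0.09, none past the threshold.

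**Figure D3:**
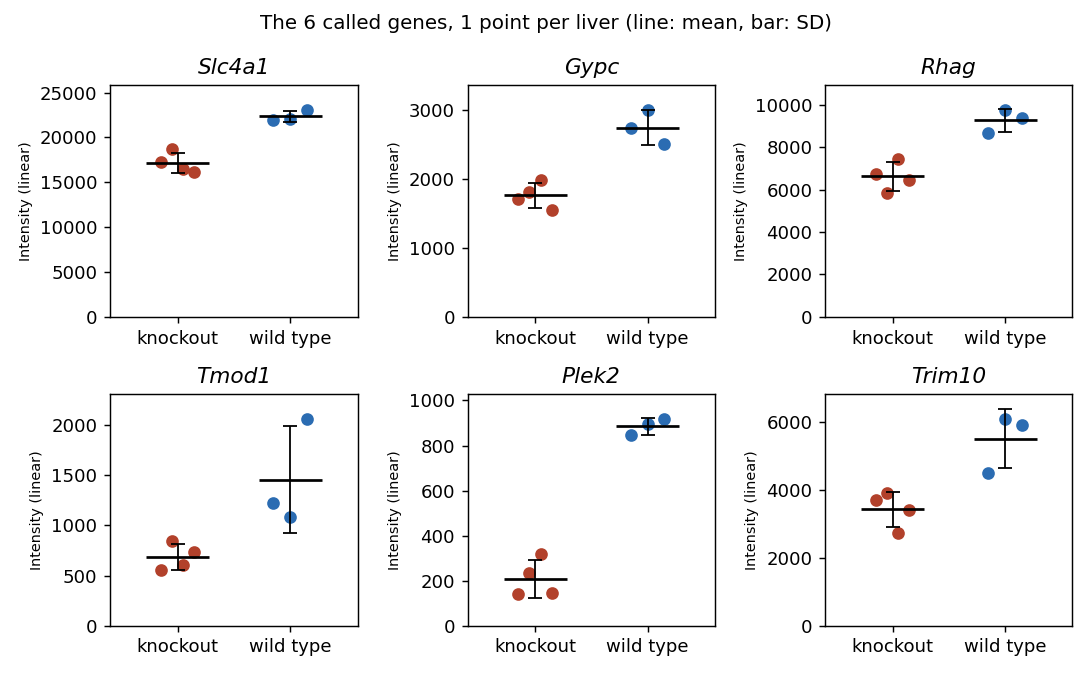
Deposited intensity of each called gene in each liver, knockout left and wild type right, with the mean (line) and SD (bar) on axes that start at 0. The groups do not overlap in any of the 6 panels, and the relative gap is widest for Plek2, at 209 in knockout against 886 in wild type livers.

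Of the 8 transcription factors and cofactors 0 fell by limma, and 2 were lower at an unadjusted p under 0.05, Hemgn and Nfe2. With 1.67% of named genes called lower, 0 calls in this role, or in smaller ones below, do not set it apart. All 8 had a log2 fold change below 0, with a median of -0.27. Hemgn encodes hemogen, a nuclear protein of erythroid cells. It read 9593, 11054, 13963 and 10907 in knockout livers, against 14661, 16122 and 16114 in wild type livers (-0.47 ± 0.13, limma adjusted p = 0.0688). The groups were apart, and without knockout 3, the highest of the knockout livers, Hemgn passed at an adjusted p of 0.0155. Nfe2 encodes the erythroid subunit of a factor that binds globin control regions. Nfe2 read 4011, 4046, 4427 and 4760 in knockout livers, against 4883, 5685 and 5719 in wild type livers (-0.33 ± 0.12, adjusted p = 0.144). Lmo2, the bridging protein of the GATA1 and TAL1 complex, read 4214, 4326, 4039 and 3983 in knockout livers, against 4748, 4654 and 5029 in wild type livers (-0.22 ± 0.11, adjusted p = 0.267). These 3 genes were those of the 8 in which the groups did not overlap.

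Gata1, the central activator of erythroid genes, was at -0.32 ± 0.16 (limma adjusted p = 0.278), with 2445, 2287, 3266 and 2105 in knockout livers, against 3064, 3357 and 2938 in wild type livers. Only knockout 3 reached into the wild type range. Tal1, which pairs with E proteins to bind beside GATA1, was at -0.39 ± 0.19 (adjusted p = 0.263), and knockout 3, at 5167, exceeded the wild type range of 4472 to 4721 while the other knockout livers lay between 2831 and 3376. Without knockout 3 the log2 fold change of Tal1 was -0.57 (limma adjusted p = 0.0299). Tal1 passed in only this 1 of 7 runs that left out 1 array. Klf1, the activator of adult globin, was at -0.03 ± 0.14, the repressor gene Gfi1b at -0.07 ± 0.17 and Zfpm1, the partner of GATA1, at -0.02 ± 0.17 (limma adjusted p = 0.94, 0.857 and 0.97). With arrays scaled to equal medians, which raised all genes by about 0.07, the values of Klf1, Gfi1b and Zfpm1 lay between 0.00 and 0.05. A further probe set of Zfpm1 was at 0.16. Klf1 read 5523, 5870, 7520 and 5418 in knockout livers, against 5570, 6562 and 6320 in wild type livers.

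Knockout 3 did not lie in one place across the roles. For the transcription factors and cofactors its median deviation from wild type was 0.10, above the -0.34 to -0.27 of the other knockout livers. For the membrane skeleton it was -0.90, below the -0.70 to -0.48 of the others. Single skeleton genes were scattered around that median. Knockout 3 was the lowest knockout liver for Epb42 and Ank1, but the highest for Sptb, Dmtn, Add2 and Plek2. Knockout 3 is the liver with the high 3' to 5' ratio of the transferrin receptor control. It also had the highest actin and Gapdh control ratios of the 7 livers, at 1.45 and 1.07. The part of these ratios in the result was not tested.

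Of the early receptors 0 of 2 fell by limma, with 1 at an unadjusted p under 0.05. Epor encodes the erythropoietin receptor. It read 1806, 1738, 1652 and 1936 in knockout livers, against 2099, 2157 and 2077 in wild type livers, without overlap but with a small difference (-0.24 ± 0.12, adjusted p = 0.278). Tfrc encodes the transferrin receptor, the iron uptake route of erythroblasts, which dividing cells of other kinds carry as well. Its brightest probe set read 10710, 10413, 14224 and 11080 in knockout livers, against 12506, 15278 and 15076 in wild type livers (-0.30 ± 0.13, adjusted p = 0.212). Knockout 3 alone exceeded wild type 1. The 2 further probe sets in the fit were at -0.12 and -0.34. The array also has 3 control probe sets for this transcript, which took no part in the fit. The one at the 3' end read 1624, 1366, 1674 and 1435 in knockout livers, against 1747, 2238 and 1949 in wild type livers, again with all knockout livers lower. The control probe sets at the middle and the 5' end overlapped between groups.

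Trim10, a tripartite motif gene of erythroid cells, fell. It read 3722, 3905, 2733 and 3410 in knockout livers, against 4517, 6116 and 5916 in wild type livers. All knockout livers were lower, knockout 3 the lowest. The log2 fold change of Trim10 was -0.68 ± 0.16 (limma adjusted p = 0.0454).

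Among the enzymes and the iron carrier 0 of 4 genes fell by limma, with 1 lower at an unadjusted p under 0.05. That was Slc25a37, mitoferrin, which brings iron into mitochondria for heme synthesis. It read 11990, 12086, 14005 and 12501 in knockout livers, against 15126, 16694 and 16589 in wild type livers (-0.35 ± 0.10, limma adjusted p = 0.0699). The groups were apart, and the gene passed without knockout 3 (adjusted p = 0.0352). Car2, a carbonic anhydrase found in red cells and many epithelia, was at -0.17 ± 0.12 (adjusted p = 0.455). The remaining genes, Car1 and Bpgm, were the only members with a value above 0. Car1, the other carbonic anhydrase, ranged from 1041 to 3343 in knockout livers and from 1507 to 3401 in wild type livers (0.09 ± 0.40, adjusted p = 0.92). Its highest wild type liver was wild type 1, and the sign of Car1 turned in 4 of 7 runs that left out 1 array. Bpgm, bisphosphoglycerate mutase, which tunes the oxygen affinity of haemoglobin, was at 0.05 ± 0.17 (adjusted p = 0.894), and 0.02 and -0.17 were the values of its 2 dimmer probe sets.

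**Figure D4:**
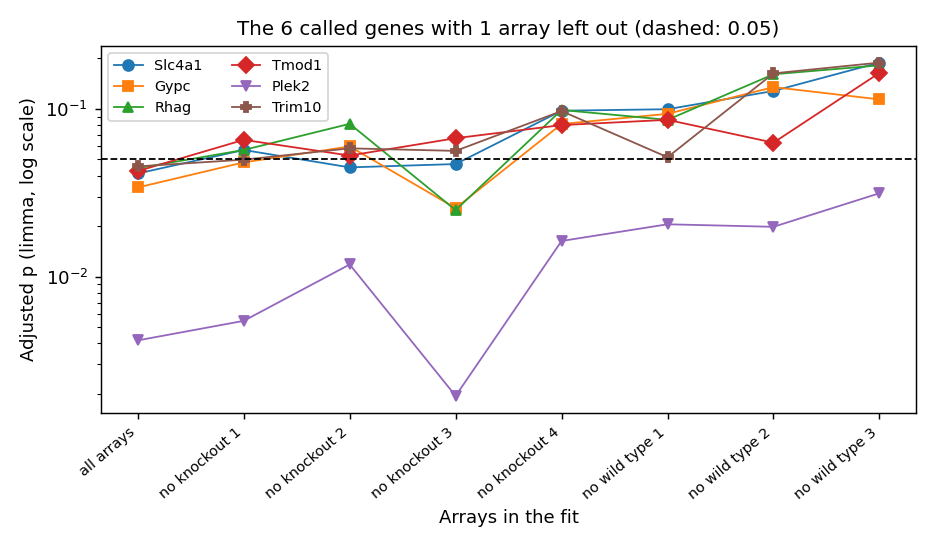
Adjusted p from limma (log axis) of each called gene with all 7 arrays and with each array left out; the dashed line is 0.05. Plek2 stays below the line throughout, while the other 5 genes start just below it and cross it in most runs.

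Apart from Plek2, the calls were close to the threshold. In the 7 runs that left out 1 array, Slc4a1 passed only without knockout 2 or 3 and Gypc only without knockout 1 or 3. Rhag passed only without knockout 3 and Trim10 only without knockout 1. The highest limma adjusted p of Slc4a1, Gypc, Rhag and Trim10 among the 7 runs were 0.189, 0.135, 0.182 and 0.189. The direction of these 5 genes was the same in all 19 settings. Without wild type 3 only Plek2 was called, and over all named genes the share called lower was then 0.0805%. Tal1, Cldn13, Tspan33, Hemgn and Slc25a37, not called in the main fit, passed among these 7 runs only without knockout 3. Their highest limma adjusted p among the 7 runs were 0.448, 0.479, 0.32, 0.241 and 0.261. Icam4, Epb42 and Dmtn passed only without wild type 1, with highest limma adjusted p of 0.232, 0.378 and 0.376.

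Promoters of called genes are shown because many red cell genes are known targets of GATA and KLF factors. RefSeq promoter windows (GRCm38.p6) were matched by symbol for 23 of the 33 measured genes, of which 4 are called genes. Each sequence gives the 250 bases before the annotated start, 5' to 3' on the strand of the gene. Capitals mark 2 kinds of motif, searched on both strands. The GATA letters were AGATAA, its variant with another last base AGATAG, its variant with another first base TGATAA, and the variant with both changes TGATAG. The KLF letters were CCNCNCCC, where N is any base, and KLF matches may overlap each other.
Rhag, chr17:40810899-40811148, plus strand: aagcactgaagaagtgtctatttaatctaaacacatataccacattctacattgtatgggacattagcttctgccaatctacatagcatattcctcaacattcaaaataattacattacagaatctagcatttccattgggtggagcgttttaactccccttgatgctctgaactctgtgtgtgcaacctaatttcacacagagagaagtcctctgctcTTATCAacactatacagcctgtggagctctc
Trim10, chr17:36869324-36869573, plus strand: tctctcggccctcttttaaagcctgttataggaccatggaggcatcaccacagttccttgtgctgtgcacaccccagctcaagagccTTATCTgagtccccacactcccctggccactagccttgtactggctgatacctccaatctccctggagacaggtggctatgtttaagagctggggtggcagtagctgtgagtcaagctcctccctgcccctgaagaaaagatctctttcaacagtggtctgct
Tmod1, chr4:46038972-46039221, plus strand: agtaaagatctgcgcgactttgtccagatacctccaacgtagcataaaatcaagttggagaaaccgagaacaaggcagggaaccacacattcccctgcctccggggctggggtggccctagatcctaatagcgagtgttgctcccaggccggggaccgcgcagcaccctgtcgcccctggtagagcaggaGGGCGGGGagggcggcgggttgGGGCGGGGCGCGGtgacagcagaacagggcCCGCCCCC
Plek2, chr12:78906939-78907188, minus strand: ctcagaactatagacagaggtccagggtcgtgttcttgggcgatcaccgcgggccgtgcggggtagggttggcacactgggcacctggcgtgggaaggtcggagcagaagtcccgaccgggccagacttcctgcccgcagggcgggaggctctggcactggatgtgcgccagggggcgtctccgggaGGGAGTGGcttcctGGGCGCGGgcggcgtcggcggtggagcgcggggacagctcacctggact

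The GATA letters stood in the windows of Rhag and Trim10, starting 31 and 163 bases before the start, and the KLF letters in those of Tmod1 and Plek2. GATA letters stood in at least 1 window of 13 of the 23 measured genes (56.5%), against 29.7% of 27025 genes in the table, and KLF letters in 16 of 23 (69.6%), against 48.5%. Both were in 1 window for 21.7% of the 23 genes, against 9.43%, among them Hemgn, Icam4, Epor, Gfi1b and Add2. The E-box letters CAGATG, with CAGGTG and with CAGCTG as variants, a kind that TAL1 and its partners bind, were also searched on both strands and are not marked. They stood in the windows of 9 of the 23 genes (39.1%), against 41.4% of all genes. These are letter matches and describe no binding. Genes with and without a call held either kind: Klf1 and Kel, which did not pass, had GATA letters 80 bases and 19 bases before the start.

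Lists of other red cell genes held 4 more calls, all lower. Heme synthesis had 1 of 9 tested genes called, Alad, the second enzyme of the pathway, at 5310, 6217, 5425 and 5362 in knockout livers, against 7513, 9173 and 8269 in wild type livers (-0.57 ± 0.12, limma adjusted p = 0.0272). All 9 heme genes were below 0, with a median of -0.28, among them the erythroid first enzyme Alas2 at -0.22 ± 0.10 (adjusted p = 0.227). Of 14 genes of terminal maturation 2 fell and 0 rose, with 10 below 0. They were Xpo7, an exportin of late erythroblasts, at -0.71 ± 0.15, and Prdx2, the main peroxiredoxin of red cells, at -0.46 ± 0.10 (limma adjusted p = 0.0353 and 0.0302). Prdx2 read 15663, 13895, 16430 and 15263 in knockout livers, against 19543, 21385 and 22293 in wild type livers.

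Of 19 further erythroid transcription factors and partners 1 fell, E2f2, which drives the last divisions of erythroblasts, at -0.56 ± 0.11 (limma adjusted p = 0.0254). It read 4454, 4086, 3764 and 4021 in knockout livers, against 6251, 5850 and 5897 in wild type livers. The list's median was -0.16. Of 15 further membrane and skeleton genes 0 passed by limma, with 2 lower and 0 higher at an unadjusted p under 0.05 and a median of -0.13. Among all named genes 1.67% were called lower, and 10.2% were lower and 12.3% higher at an unadjusted p under 0.05. Of 12 genes of erythropoietin and stem cell factor signalling 0 passed, with 3 lower and 0 higher at an unadjusted p under 0.05 and a median of -0.17. The 3 were the survival gene Bcl2l1 at -0.48 ± 0.14, the kinase gene Pim1 at -0.71 ± 0.22 (limma adjusted p = 0.0752 and 0.0942) and the feedback inhibitor gene Socs3. Socs3 read 907, 620, 682 and 231 in knockout livers, against 1269, 1116 and 975 in wild type livers (adjusted p = 0.153). Without knockout 3, Pim1 passed at -0.89 (limma adjusted p = 0.0256). That was the only 1 of 7 runs without 1 array in which Pim1 passed (highest adjusted p 0.264). E2f2, Xpo7, Prdx2 and Alad each lost the call in 3 to 5 of 7 runs without 1 array, all of them without wild type 2, wild type 3 or knockout 4.

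Markers of other cells were read beside these results. No listed marker was at 0 in any array. Cell division genes, which erythroblasts and other dividing cells share, moved alongside: 23 of 23 were below 0, with a median of -0.38. Rrm2 alone was called, at -0.73 ± 0.17 (limma adjusted p = 0.042). Rrm2 passed in 3 of 7 runs that left out 1 array (highest limma adjusted p 0.156) and in 7 of 12 other settings. Of the 23 genes 15 (65.2%) had all knockout livers below wild type, against 10.4% of named genes. Their summed intensity ran from 74028 to 96365 in knockout livers and from 115361 to 121884 in wild type livers. Liver endothelial markers had summed intensities of 11378 to 17330 in knockout livers and 18404 to 20683 in wild type livers, with 8 of 10 below 0, 0 called by limma, and 4 lower and 1 higher at an unadjusted p under 0.05. Their part in the result was not tested.

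The summed levels of the remaining marker lists overlapped between groups. Hepatocyte markers summed to 296426 to 379489 in knockout livers and 306893 to 342623 in wild type livers, with 3 of 11 below 0, and knockout 3 was the highest. Megakaryocyte and platelet markers, whose cells share GATA1, NFE2 and TAL1 with erythroblasts, summed to 23344 to 34150 in knockout livers and 26354 to 45832 in wild type livers, with 9 of 10 below 0 and a median of -0.14. Macrophage markers had a median of -0.14 over 12 genes, neutrophil precursor markers -0.13 over 10, mast cell and basophil markers -0.07 over 3 tested, 2 of 7 averaging under an intensity of 50, and B cell precursor markers 0.41 over 8. Of these 6 lists 0 genes were called by limma. At an unadjusted p under 0.05, 1 macrophage and 1 neutrophil gene were lower and 1 hepatocyte gene was higher.

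**Figure D5:**
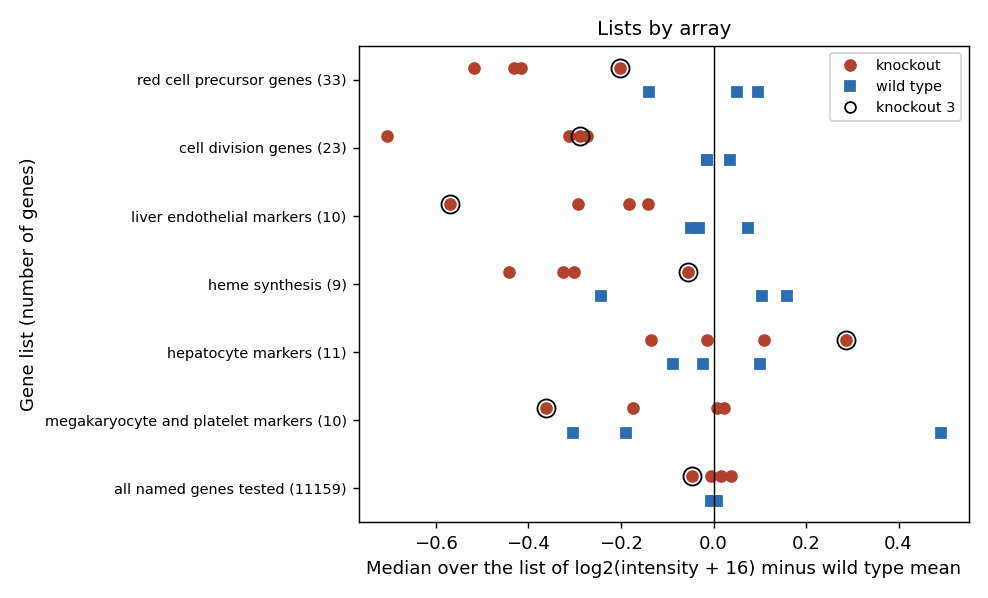
Each point is the median over a gene list of log2(intensity + 16) minus the wild type mean in 1 liver, red circles for knockout above blue squares for wild type, with knockout 3 ringed. Red cell precursor, cell division and endothelial lists show the groups apart, while heme synthesis, hepatocyte and megakaryocyte lists overlap and all named genes stay near 0.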

How the data were processed

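Messenger RNA of 7 livers was measured on 7 arrays. Values are intensities on a linear scale as deposited by the authors, scaled per array to a common trimmed mean (2% left out at each end). The software GCOS is named per the submitters' processing notes, while the sources used here do not give how probes were summarised. The number of arrays limits the precision. Group and number of each liver were read from its title. RNA was extracted from each liver separately, per the labels' protocols.

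Intensities were transformed to log2(value + 16). Of 45101 probe sets 64 controls were left out, and those with a mean above the median (50th percentile) were kept. Knockout minus wild type was fitted in R 4.3.3 using limma 3.58.1 (lmFit, eBayes with a trend, no covariates), with Benjamini-Hochberg adjustment over 22518 probe sets and a call under 0.05. Errors of log2 fold changes are limma standard errors, and errors of intensities are SDs. The log2(value + 16) scale understates changes of dim probe sets. By the platform annotation, 34958 probe sets had 1 symbol, 932 had several and 9211 had none. Replicates are separate livers, and litters and scan dates were not used.

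The 34 genes, 6 pathway lists and 8 marker lists (187 genes) were chosen with earlier results of these data known, so no test over a list was made. All 34 genes were to be named, and of other lists the called genes (up to 6, or 3 for markers, by smallest p); any further gene was picked with its values in view. The fit was first tested on simulated data. Alternatives covered the offset, scaling, filter, variance model, each array left out, replicate block, threshold and the choice of probe set. Plots used matplotlib 3.10.9.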

Additional observations from a re-analysis of the deposited data

Results flagged for a closer look

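Over the 33 genes and the 5 called genes of the other lists, only the 4 knockout livers were scanned for outlying values. The wild type livers were not scanned. In the scan 1 value lay far from the rest of its group. Alad read an intensity of 6217 in knockout 2, against 5310 to 5425 in the other knockout livers, a gap of 0.865 of the group's range on the log2 scale, above the 95% critical value of Dixon's test for 4 samples. Chance flags about 1 in 20 groups. The wild type livers, at 7513 to 9173, were above all 4 knockout livers.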

How the results depend on the processing

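The 6 calls among the 33 genes became 2 with arrays scaled to equal medians, 1 without a filter, 1 with eBayes without a trend, 1 with the replicate block and 12 at an adjusted p under 0.1, and ran from 1 to 9 with 1 array left out. The share of all named genes called lower, 1.67%, became 0.699% with equal medians, 0.401% without a filter and 0.78% without a trend. It was 0.582% with the block and 4.1% at 0.1, and ran from 0.0805% to 1.62% with 1 array left out. The median log2 fold change of the red cell precursor genes ran from -0.44 to -0.32 over all settings and stayed within the spread between knockout livers. Of these genes 0 were called higher in any setting (limma, 0 at an unadjusted p under 0.05). All probe sets called, 955, became 473 without a filter, 584 without a trend, 351 with the block, 2032 at 0.1, and 127 to 1006 with 1 array left out. The 5 falls in other lists became 1 with equal medians, 9 with quantile normalization, 1 without a filter, 8 above the 75th percentile, 0 without a trend (34 at an unadjusted p under 0.05), 1 with the block, 13 at 0.1 (and 1 rise), 2 with the mean of all probe sets, and 0 to 10 with 1 array left out (25 to 45 at an unadjusted p under 0.05). The cause was not tested for any of these. Knockout 4 has no wild type liver of its number, so with the block it takes no part in the log2 fold changes. The median of the red cell precursor genes was -0.36 both with the block and without knockout 4, and these 2 settings are not separate checks. Same-numbered livers of the groups had correlations of deviations of 0.087, -0.056 and 0.055. Livers of unlike number were not compared, so these values cannot decide whether the numbers pair the livers. Plek2 was not tested above the 75th percentile, where it fell under the filter.

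Of the genes near 0 some turned sign, none past the threshold. With equal medians Aqp1 was at 0.011, Add2 at 0.031, Klf1 at 0.045, Zfpm1 at 0.054 and Gfi1b at 0.00069. With the block Add2 was at 0.13, Klf1 at 0.026, Zfpm1 at 0.10 and Gfi1b at 0.014, the same values as without knockout 4. With the mean of all probe sets Zfpm1 was at 0.074 and Bpgm at -0.032, and with the probe set of smallest p at 0.16 and -0.17. With 1 array left out Aqp1 ran from -0.20 to 0.062, Add2 from -0.34 to 0.13, Klf1 from -0.13 to 0.026, Zfpm1 from -0.13 to 0.10, Gfi1b from -0.24 to 0.047, Car1 from -0.14 to 0.46 and Bpgm from -0.054 to 0.22.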

Other observations

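Embryonic globins separated wild type 1 from the other livers. Hbb-y, the embryonic beta-like globin of the yolk sac wave of red cells, read 114, 305, 75.4 and 361 in knockout 1 to 4, against 4262, 337 and 544 in wild type 1 to 3. Hba-x, the embryonic alpha-like globin, read 110, 347, 8.8 and 153 in knockout livers, against 2673, 174 and 426 in wild type livers. Hbb-bh1 read 70.3, 99.7, 104 and 78.0 in knockout livers, against 280, 99.0 and 92.1 in wild type livers. In all 3 genes wild type 1 was the highest liver, while it was the lowest wild type liver for 22 of the 33 red cell precursor genes. Of the 11 genes in the globin list 6 had a probe set and 4 were tested. The probe sets with the adult gene Hba-a1 or Hba-a2 as their only symbol fell under the filter on dim signals, so Hbb-b2 was the only adult globin tested. Probe sets with several symbols were not read for single genes, so the level of adult alpha globin cannot be judged from these dim probe sets. Of the 4 globin genes tested 0 were called by limma, with 2 lower at an unadjusted p under 0.05, Hbb-y and Hba-x. Their log2 fold changes were -2.28 ± 0.78 and -2.37 ± 0.96 (limma adjusted p = 0.126 and 0.184). Without wild type 1 they were -1.19 ± 0.54 and -1.30 ± 0.88 (limma adjusted p = 0.295 and 0.479), and Hbb-bh1 then fell under the filter on dim signals. Hbb-b2 was at -0.41 ± 0.25 (adjusted p = 0.363).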
